A study of Mus musculus with 2 samples.

Results

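Mir218-1 and Mir218-2 are the mouse genes for the microRNA miR-218, and each lies in an intron of a gene for a Slit protein. They were taken by symbol, and both were found among the 2202 microRNA genes in the deposited counts. The data are microRNA-seq of total RNA from hippocampal tissue (labelled a layer of hippocampus). The mice were 36-day-old B6CASTF1/J males, a hybrid of the inbred strains C57BL/6J and CAST/EiJ. There were 2 libraries, labelled biological replicates 1 and 2, and no second condition, treatment or engineered allele. Each library came from its own tissue sample, while both carry 1 donor label. A p-value between them therefore refers to these libraries only.

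Slit proteins are secreted ligands that steer growing axons through Robo receptors. A microRNA hairpin is cut into a 5p and a 3p arm, and the arm loaded into Argonaute recognises targets mainly through its seed, bases 2 to 8. miR-218 is best known from motor neurons, is also present in hippocampal pyramidal neurons, and is known to repress Robo1, so that a Slit gene can carry a repressor of a Slit receptor in its own intron.

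The hairpins are shown first because the sequence that both genes share sets which reads can be told apart. Mature arms are in capitals, and sequences are from RefSeq on GRCm38.p6, the assembly behind mm10, plus strand, at chr5:48223942-48224051 for Mir218-1 and chr11:35616816-35616925 for Mir218-2.
Mir218-1: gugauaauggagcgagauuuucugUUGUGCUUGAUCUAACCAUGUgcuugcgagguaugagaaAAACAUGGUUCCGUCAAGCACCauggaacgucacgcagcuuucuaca
Mir218-2: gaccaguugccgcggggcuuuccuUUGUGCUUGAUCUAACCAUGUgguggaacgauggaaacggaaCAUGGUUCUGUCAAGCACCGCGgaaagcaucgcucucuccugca

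The mature arms follow with the seed in capitals, to show which seeds the genes can produce.
miR-218-5p (both genes): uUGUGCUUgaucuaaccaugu
miR-218-1-3p (Mir218-1): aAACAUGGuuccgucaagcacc
miR-218-2-3p (Mir218-2): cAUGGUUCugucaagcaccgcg
The 5p arm is the same 21 bases in both genes. The 3p arms are annotated with different first bases and so have different seeds. Over the 19 bases where the 3p arms align, 18 were identical and the substitution was C12U, with miR-218-1-3p first and positions counted from 1 at its 5′ end. The base that differs is in capitals below, since it separates reads of the 3p arms.
miR-218-1-3p: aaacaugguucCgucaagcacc
miR-218-2-3p: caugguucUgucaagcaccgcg

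The longest stretch common to both hairpins had 22 bases and held the whole 5p arm and the base after it (UUGUGCUUGAUCUAACCAUGUg, arm in capitals). It occupied bases 25 to 46 of either hairpin. Of the 89 windows of 22 bases in Mir218-1, 1 (1.12%) also occurred in Mir218-2, on either strand, and none of 23 bases did. The 3p arms shared no stretch over 10 bases. A full-length read of the annotated 5p arm therefore matches both genes equally, whereas one of either 3p arm matches 1 of the genes exactly. This rests on the reference sequence, and the CAST/EiJ alleles of these mice were not examined. Reads that match several places stand on a line of their own in the files and enter no gene, and they made up 40.3% of replicate 1 and 46.5% of replicate 2. How many of them were miR-218-5p is not given by these counts. Counts are per gene, so the arms behind the counted reads, and longer or shifted forms of the 5p arm that reach a differing base, cannot be separated.

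**Figure D1:**
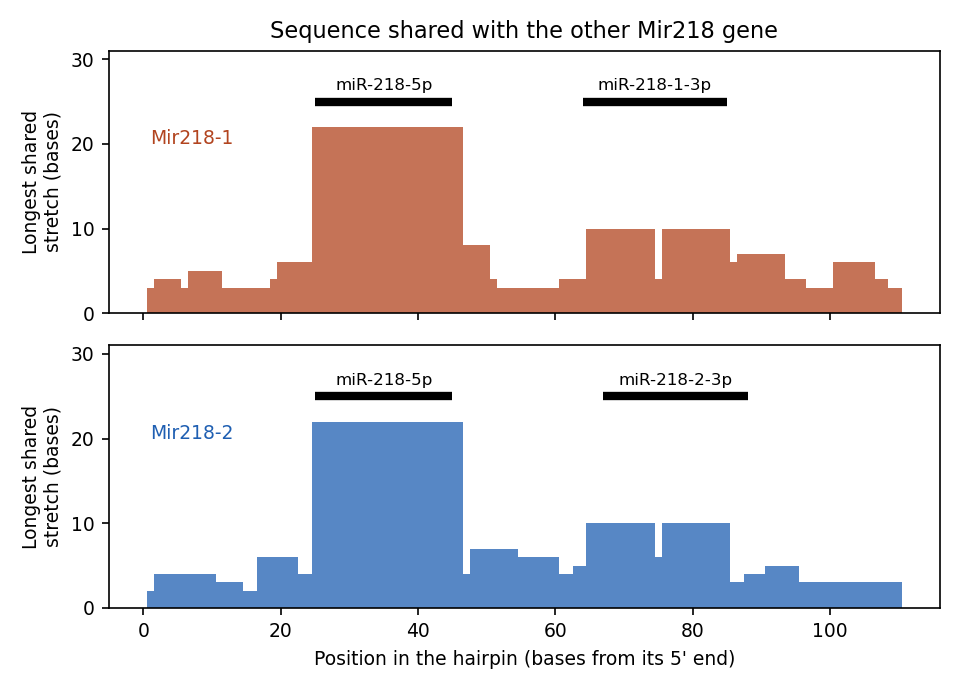
For each base of the Mir218-1 (top) and Mir218-2 (bottom) hairpin, counted from the 5′ end, the bar gives the length in bases of the longest stretch covering it that also occurs in the other hairpin; black lines mark the mature arms. The 5p arm lies inside a shared stretch of 22 bases, and the 3p arms reach 10 bases.

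No other place with the 5p arm was found in the annotation. In 141767 GENCODE M21 transcripts the 21 bases occurred in those of 2 genes, Mir218-1 and Mir218-2, and their complement in none. No other RefSeq hairpin shared 20 bases with either gene. Intergenic and intronic sequence was not searched. Among 1679 mature mouse microRNAs in the RefSeq table, 1 other carried the seed of miR-218-5p, miR-7002-3p. Its gene Mir7002 had 2 counts in replicate 1 and 3 in replicate 2, which is at or under the 3 counts that a count of 0 allows. The seed of miR-218-1-3p occurred in 1 other, miR-496b, whose gene Mir496b had 0 counts in both libraries, which allows up to 0.681 and 0.568 CPM (counts scaled to a library of 1000000). No other mature microRNA in the table had the seed of miR-218-2-3p.

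The genes occupy the same place in their hosts. Mir218-1 (ENSMUSG00000065603.1, mm10) lies on the plus strand of chromosome 5 from 48223942 to 48224051, in intron 14 of Slit2 (ENSMUSG00000031558.15), with the host on the same strand. Mir218-2 (ENSMUSG00000065583.1) lies on the plus strand of chromosome 11 from 35616816 to 35616925, in intron 14 of Slit3 (ENSMUSG00000056427.10), again on the strand of the host. The principal coding transcripts of Slit2 and Slit3 each had 36 exons. In both, exon 14 had 164 bases and exon 15 had 151, and the intron fell after the first base of a codon (phase 1). The introns differed in length, with 4572 bases in Slit2 and 9571 in Slit3. Mir218-1 began 3861 bases after exon 14 and ended 601 bases before exon 15, while Mir218-2 began 4379 bases after exon 14 and ended 5082 before exon 15. From the start of the host gene the hairpins were 240.8 kb away in Slit2 and 495.6 kb in Slit3. Every annotated host transcript that spans the hairpin holds it in an intron (7 of 7 for Slit2 and 1 of 1 for Slit3). Host mRNA was not measured in these libraries.

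Neither gene is part of a microRNA cluster. No annotated microRNA gene lay within 10 kb of either. The nearest to Mir218-2 was Mir103-1, in an intron of Pank3, 165 kb away, with 12 and 16 counts. The nearest to Mir218-1 was Mir8117, 2029 kb away, with 0 counts in both libraries.

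The hairpins have the same length, 110 bases, but differ outside the arms. In a global alignment 81 of 115 columns were identical (70.4%). GC content was 45.5% in Mir218-1 and 54.5% in Mir218-2, against a median of 51.7% over 1005 RefSeq hairpins. RNAfold gave a minimum free energy of -36.6 kcal/mol with 35 base pairs for Mir218-1 and of -42.3 kcal/mol with 34 base pairs for Mir218-2. Per base, 22.4% of the hairpins were less stable than Mir218-1 and 41.0% less stable than Mir218-2.

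The own-strand total over all genes was 4404040 counts in replicate 1 and 5279877 in replicate 2. In all, 778 genes had any count and 411 had 10 or more in both libraries. Of 8 neuron markers, 5 reached 10 counts in each library. The sum of all 8 was 35976 CPM in replicate 1 and 38822 CPM in replicate 2. Its largest part, Mir132, fell from 23835 to 17251 CPM, while Mir128-1, Mir128-2, Mir138-1 and Mir138-2 were each higher in replicate 2. The sums therefore do not show how single neuron markers differed. The defining miR-124 genes ranged from 0 to 11 counts a library. By symbol they are 3 copies, and reads that match several places enter no gene. Their counts therefore need not give the level of miR-124. The oligodendrocyte markers (3 of 3) summed to 5819 and 5661 CPM, the microglia and leukocyte markers (5 of 5) to 1559 and 1856, and the vessel muscle markers (2 of 2) to 6520 and 5898. The endothelial marker Mir126a stood at 9729 and 37937 CPM. The choroid plexus markers (4 of 5) summed to 758 and 1359 CPM and the red blood cell markers (2 of 2) to 58.1 and 75.4. Of 3 muscle markers, Mir206 had 98.1 and 107 CPM, above both Mir218-1 values given below, while Mir133b and Mir1a-1 had 0 counts. The liver marker Mir122 had 30.20 and 27.65 CPM, a level like that of Mir218-1. For tissue from behind the forebrain, where motor neurons lie, 6 Hox-locus microRNAs served as a check: 4 reached 10 counts in each library, Mir196a-1 had none in either, and their sum was 62.0 and 68.2 CPM, led by Mir10b, Mir10a and Mir196b at 32.1 ± 5.24, 17.5 ± 1.22 and 12.1 ± 0.822 CPM (mean ± SD, n = 2).

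Both Mir218 genes were detected in both libraries, and Mir218-2 stood above Mir218-1 in each. Mir218-1 had 88 counts in replicate 1 and 200 in replicate 2. These were 20.0 CPM (95% exact Poisson interval 16.0 to 24.6) and 37.9 CPM (32.8 to 43.5). Mir218-2 had 933 counts in replicate 1 and 1401 in replicate 2, or 212 CPM (198.5 to 225.9) and 265 CPM (251.6 to 279.6). The lowest Mir218-2 value was thus above the highest Mir218-1 value, and for each gene the intervals of the libraries did not overlap. As mean ± SD of 2 libraries, Mir218-1 stood at 28.9 ± 12.7 CPM and Mir218-2 at 239 ± 37.8 CPM. A read in such a library is a whole small RNA, so these values are not divided by length. Intervals cover counting error only, since reads amplified by PCR without molecular identifiers are not independent molecules. In bulk tissue, fewer cells that make a microRNA and less of it per cell cannot be told apart.

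**Figure D2:**
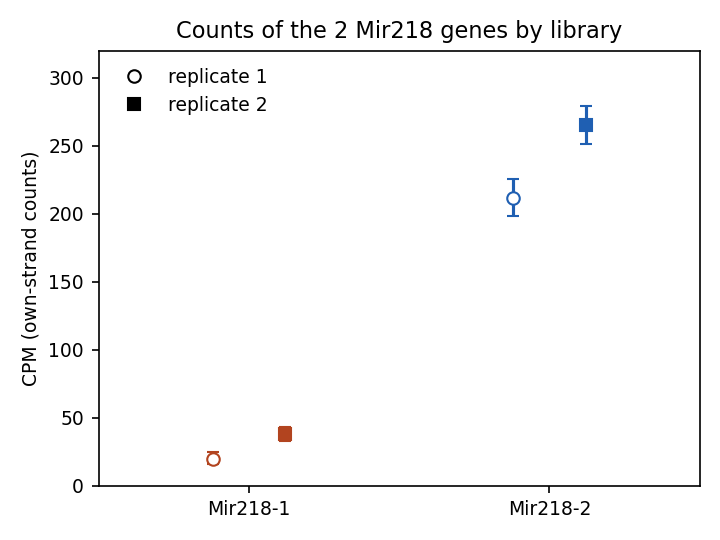
CPM on the strand of the gene for Mir218-1 and Mir218-2 in replicate 1 (open circles) and replicate 2 (filled squares), with 95% exact Poisson intervals as bars. Mir218-1 lies at 20.0 and 37.9 CPM and Mir218-2 at 212 and 265 CPM.

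All counted reads of both loci came from the strand of the hairpin. The opposite strand had 0 counts for both genes in both libraries, which allows up to 3 counts each, and the deposited column for either strand gave the same counts as the column for the strand of the gene. The column for either strand therefore lost no read of these loci to a gene on the opposite strand.

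By mean CPM, Mir218-2 ranked 161 and Mir218-1 ranked 261 of the 2202 genes. In replicate 1 they ranked 163 and 271 of the 687 genes with any count, and in replicate 2 160 and 253 of 723. Mir218-2 held 0.0212% and 0.0265% of all gene counts and Mir218-1 0.00200% and 0.00379%. By assigned counts, Mir218-2 thus sat in the upper part of the detected range and Mir218-1 nearer its middle, in the same order in both libraries. Reads that match both genes do not enter these ranks.

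**Figure D3:**
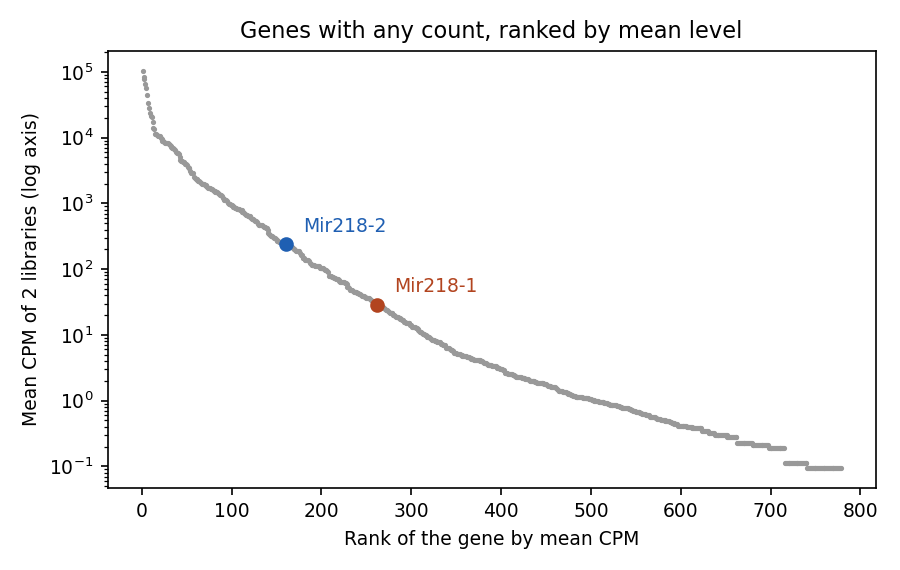
Mean CPM of the 2 libraries (log axis) for the 778 genes with any count, in order of rank; coloured points mark the Mir218 genes. Mir218-2 lies at rank 161 with 239 CPM and Mir218-1 at rank 261 with 28.9 CPM.

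Of the reads assigned to either Mir218 gene, most belonged to Mir218-2. Its share was 91.4% in replicate 1 (95% exact binomial interval 89.5 to 93.0) and 87.5% in replicate 2 (85.8 to 89.1). As a ratio, Mir218-2 had 10.6 times the counts of Mir218-1 in replicate 1 (8.51 to 13.3) and 7.005 times in replicate 2 (6.04 to 8.17), a mean of 8.80 ± 2.54 (SD, n = 2). The share moved toward Mir218-1 in replicate 2, with an odds ratio of 1.51 (95% interval 1.16 to 1.99) and p = 0.00207 in Fisher's exact test, two-sided, 1 comparison. That test covers counting error alone, and spread between libraries was not added to it. It was run for this pair only, and ratios of other gene pairs, some of which changed by more, are given below. Reads that match both genes do not enter the ratio, so it need not be the ratio of miR-218-5p made from Slit2 and from Slit3.

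Both genes were higher in replicate 2. After TMM scaling and without a pseudocount, Mir218-1 was 1.87-fold higher in replicate 2 (95% interval 1.45 to 2.44), a log2 ratio of 0.91 (0.54 to 1.28). With 1 CPM added to each value the log2 ratio was 0.87, and the exact conditional binomial test, adjusted over all tested genes by Benjamini-Hochberg, gave an adjusted p of 1.47e-06. Mir218-2 was 1.24-fold higher (1.14 to 1.35), with a log2 ratio of 0.31 either way and an adjusted p of 1.14e-06 in the same exact test. The test covered 504 genes with at least 10 counts in total. It called 281 of them (55.8%) and 164 as higher in replicate 2 (32.5% of the 504), so the 2 of 2 Mir218 genes called stand against a background in which most genes differ. Among the 313 tested genes with 100 or more counts, as both Mir218 genes have, 81.2% were called. When these 313 alone were tested, 148 were called higher in replicate 2.

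The difference of Mir218-2 was smaller than that of most tested genes, and the difference of Mir218-1 was larger than that of most. In absolute log2 ratio, 112 of the 504 tested genes (22.2%) exceeded Mir218-1 and 321 (63.7%) exceeded Mir218-2, and the median over tested genes was 0.45. The signed ratios had a median of 0.05 and quartiles of -0.36 and 0.56, which places Mir218-2 inside and Mir218-1 above the middle 50% of genes. The common biological coefficient of variation from edgeR was 0.425. When the test was made to allow for a coefficient of variation of 0.1, the adjusted p was 0.00574 for Mir218-1 and 0.309 for Mir218-2, and with 0.3 it was 0.846 and 1.00. Both differences thus passed the test that covers counting error alone. With a coefficient of variation of 0.1 Mir218-1 passed and Mir218-2 did not, and with 0.3 neither passed.

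**Figure D4:**
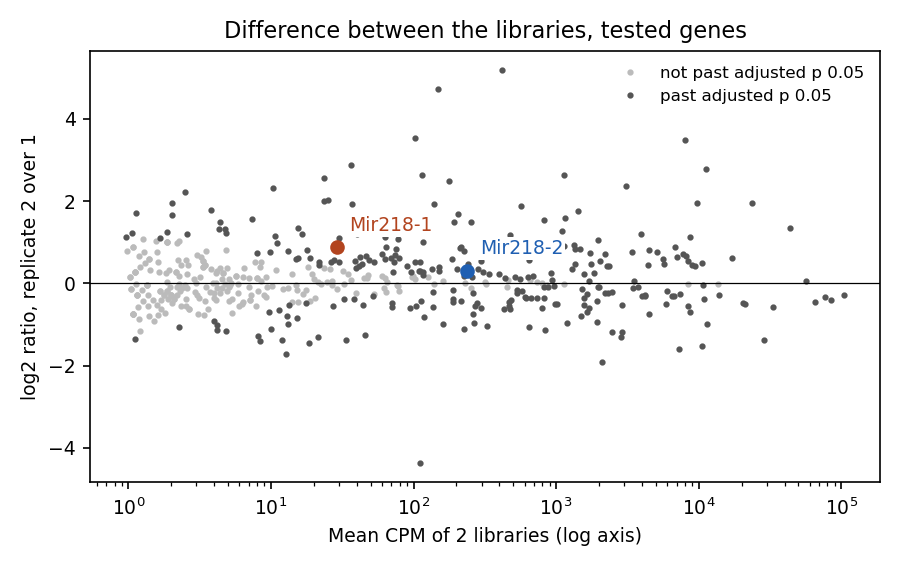
The log2 ratio of replicate 2 over replicate 1, after TMM scaling with 1 CPM added, against the mean CPM (log axis) for 504 tested genes; dark points pass an adjusted p of 0.05 and coloured points are the Mir218 genes. Mir218-1 lies at 0.87 and Mir218-2 at 0.31, within the cloud of genes of like level.

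The genes closest to each Mir218 gene in level were found by the larger of the absolute differences in log2(CPM + 1) over the 2 libraries. For Mir218-2 the closest was Mir384, a brain-enriched microRNA, with 218 and 277 CPM and a largest distance of 0.06. Mir339 followed at 224 and 268 CPM (0.08), and then Mir380, of the imprinted Dlk1-Dio3 region, at 202.5 and 283 CPM (0.09). For Mir218-1 the closest was Mir1264, in an intron of the serotonin receptor gene Htr2c, with 89 and 197 counts against 88 and 200 (distance 0.02). Mir24-1, with 81 and 217 counts (0.12), and Mir6236, with 96 and 176 (0.18), came next. Mir24-1 has a copy with the same mature arm, so its count has the same limit as those of the Mir218 genes. By mean CPM the next ranks were Mir380 above and Mir488 below Mir218-2, the latter at 227.5 and 231 CPM. Around Mir218-1 they were Mir24-1 above and the liver microRNA Mir122 below, with 30.2 and 27.6 CPM. The mean CPM of Mir122 and Mir218-1 both round to 28.9. Mir122 had the higher value in replicate 1 and Mir218-1 in replicate 2. With 2 libraries, this likeness is one of level only.

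Among 21 microRNAs listed for roles at synapses or in neuronal excitability, Mir218-2 ranked 16 and Mir218-1 ranked 18 by mean CPM. The list mixes genes with and without copies, and reads that match several copies enter no gene. These ranks therefore need not be those of the mature microRNAs. The list was led by the activity-dependent Mir132 at 20543 ± 4655 CPM, Mir128-1 at 8694 ± 4603 and Mir137 at 7699 ± 2736 (SD, n = 2). Mir384 (247 ± 42.0 CPM) stood just above Mir218-2, and their ranges over the libraries overlapped. Mir153 (204 ± 153) stood between the Mir218 genes, with a range of 95.4 to 312.5 CPM that spans both Mir218-2 values. Below Mir218-1 came the 3 miR-124 genes alone. They are gene copies too, so this order of assigned counts need not be that of the microRNAs. Of the 21 genes, 18 reached 10 counts in each library and 19 were tested between them: 12 were higher in replicate 2, both Mir218 genes among them, 5 were lower and 2 did not pass. Over all tested genes 55.8% were called and 32.5% were higher, and 81.2% were called among those with 100 or more counts. When only genes with 100 or more counts were tested, 148 of 313 were called higher in replicate 2. All tested genes of the list but Mir124a-1 had 100 or more counts, so this is the nearer background. The median log2 ratio was 0.42 in this list and 0.05 over all 504 tested genes. Among cell type markers, the endothelial Mir126a had a log2 ratio of 1.95 between the libraries. Median log2 ratios of the tested markers were 0.43 for neurons, 0.004 for vessel muscle and 0.80 for choroid plexus. They were 0.05 for oligodendrocytes, 0.25 for microglia and leukocytes and 0.16 for red blood cells. The part of cell composition in the Mir218 difference was not tested.

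Mir218 is 1 of many microRNAs encoded by gene copies. By symbol (names that differ in a final number alone), 53 families held 138 genes. In 29 families, among them Mir218, RefSeq gives an arm identical in all copies and an arm that differs. Of their 59 genes, 41 reached 10 counts in each library, 17 had a mean CPM above that of Mir218-2 and 31 above that of Mir218-1. In 10 families with 23 genes every annotated arm was identical, and 2 of these genes had 10 or more counts in both libraries. A further 13 families with 54 genes lacked a RefSeq entry for every copy and could not be classed. Of those 54 genes, 0 reached 10 counts in both libraries. In 1 family of 2 genes no arm was identical in all copies.

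Of 28 families with exactly 2 genes, an identical arm and an arm that differs, 19 had more than 3 counts for both genes in both libraries. The higher copy exceeded the lower by a median of 4.95 times in replicate 1 (range 1.06 to 360.0) and 4.09 times in replicate 2 (1.38 to 291.5). Mir218, at 10.6 and 7.005, lay above the median in both, with 6 families above it in replicate 1 and 5 in replicate 2. In 18 of the 19, Mir218 among them, the same copy was higher in both libraries, the exception being Mir26a. Among other neuronal pairs, Mir128-1 had 5.19 and 6.31 times the counts of Mir128-2, Mir129-2 had 4.95 and 5.89 times those of Mir129-1, and Mir138-1 had 1.92 and 1.96 times those of Mir138-2. Of the 18 pairs that kept their order, the ratio was smaller in replicate 2 in 6, Mir218 among them, and larger in 12. Among the 6, Mir181a fell from 39.09 to 5.15, Mir103 from 11.33 to 4.0 and Mir135a from 9.39 to 3.73, each by a larger factor than Mir218. Mir16 (4.27 to 4.09) and Mir219a (360.0 to 291.5) fell by a smaller factor. In summed counts of both copies, 13 families exceeded the 1021 counts of Mir218 in replicate 1 and 11 exceeded its 1601 in replicate 2.

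**Figure D5:**
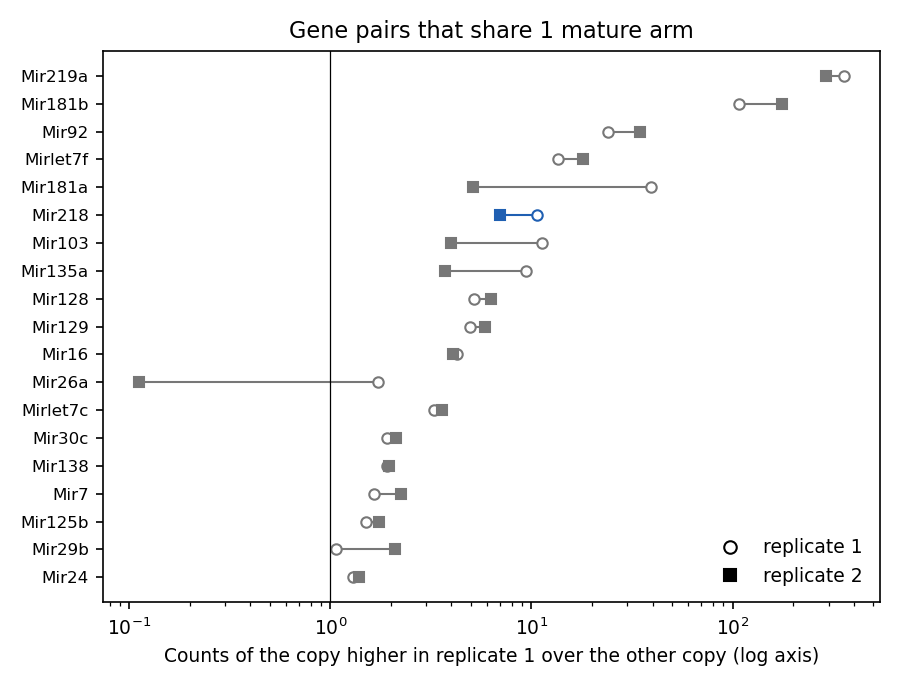
Counts of the copy that is higher in replicate 1 divided by those of the other copy (log axis), for 19 pairs with 1 identical and 1 differing mature arm; open circles are replicate 1 and filled squares replicate 2. Mir218 (blue) lies at 10.6 and 7.005, and Mir26a is the pair whose order turns.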

How the data were processed

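The authors deposited raw counts per microRNA gene, 1 file for each library. Per the notes deposited with the files, reads were assigned to mm10 with GENCODE M21. Which aligner was used is not given in the sources used here. What strand a count column refers to was read from the values. Reads on lines without a gene were not used (64.7% and 65.4% of reads). All 2202 identifiers matched GENCODE M21, and 968 had a RefSeq hairpin by symbol.

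CPM is the count on the strand of the gene over the total of all genes, times 1000000. Replicates were compared by an exact conditional binomial test, two-sided (scipy 1.17.1), with shares from TMM-scaled library sizes (edgeR 4.0.16), over genes of at least 10 counts in total. edgeR's quasi-likelihood test had no contrast between groups to fit. The test was tested on simulated counts. DESeq2 1.42.0 gave alternative size factors, and RNAfold 2.7.2 the free energies.

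Named genes are the Mir218 genes, the 3 nearest in level to each, the neighbours in rank and within 10 kb, and the highest 3 of each list. Others are markers and families given by count, or were chosen after their values were seen. The latter are Mir153, Mir8117, Mir103-1, Mir26a, the neuronal pairs and the pairs with a smaller ratio in replicate 2. The members and lists were chosen with earlier results of these data known.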

Additional observations from a re-analysis of the deposited data

How the results depend on the processing

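Alternatives were the count column for either strand, scaling by library totals or DESeq2 size factors, count minimums of 1 and 100, 0.5 CPM in place of 1 CPM, added spread between libraries, each library alone and other window lengths. The level of Mir218-1 ranged from 20.0 to 37.9 CPM and that of Mir218-2 from 212 to 265 CPM with 1 library left out, and their ratio from 7.005 to 10.6. Without added spread, the log2 ratio stayed between 0.86 and 0.92 for Mir218-1 and between 0.29 and 0.35 for Mir218-2, past the threshold. With a coefficient of variation of 0.1 the call of Mir218-2 (0.31) was lost and 149 genes were called in all. With 0.3 both calls were lost (0.87 and 0.31, adjusted p 0.846 and 1.00) and 14 genes were called, since the test then allows for more spread. With windows of 24 bases 0% were shared, as the common stretch is shorter; with 18 and 20 bases 5.38% and 3.30% were. No other alternative changed a call. Mir218-1 had 88 counts in replicate 1 and 200 in replicate 2, which limits the precision of its values.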
